A study of Mus musculus with 20 samples.

Results

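Replication-dependent histone genes make the bulk of the histone protein that packs newly copied DNA. They were taken here as every gene whose symbol is that of a clustered H1, H2A, H2B, H3 or H4 gene (H1f1 to H1f6 and the H2ac, H2bc, H3c and H4c series). This gave 56 of the 14700 genes listed in the deposited tables, namely 5 H1, 15 H2A, 14 H2B, 11 H3 and 11 H4 genes. Of these, 54 stood in all 4 tables, H2bc23 was not listed where N_WT was compared, and H2ac23 was not listed where N_KO was compared.

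The cells were primary mouse neurons taken from the cortex at embryonic day 15 and cultured for 7 days. Cultures were labelled wild type (WT) or knockout (KO) for ciRS-7, a circular RNA whose locus is listed as Cdr1as, and the strain label of both genotypes was C57BL/6N-Cdr1asem1Nikr. For 12 h they were kept either in normoxia with 25 mM added glucose and 0.2 mM added pyruvate (N) or in a chamber at 1% oxygen without added glucose (oxygen and glucose deprivation, OGD). The groups N_WT, OGD_WT, N_KO and OGD_KO each held 5 libraries of total RNA, which the series describes as biological replicates, and p-values measure the spread between these libraries. Recovered reads ranged from 7073212 to 13172891 in N_WT, 9218914 to 16663327 in OGD_WT, 7583097 to 14766691 in N_KO and 7497346 to 14527548 in OGD_KO. Cdr1as was at 75.2 to 96.0 CPM in N_WT and 49.7 to 120.6 in OGD_WT, against 0.4 to 1.33 in N_KO and 0.144 to 1.48 in OGD_KO, so all 20 libraries matched their genotype label.

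Messenger RNAs of this kind are made mainly while DNA is being copied and differ from almost all other mRNAs in having no poly(A) tail. Their 3′ end is a short stem-loop, which is bound by the protein SLBP. The precursor is cut after the stem-loop with the help of the U7 small nuclear RNA. Neurons no longer divide, while progenitors and glia in a cortical culture can, and differentiated cells can make some of these mRNAs with a poly(A) tail. In bulk RNA, fewer cells of a type and less RNA per cell cannot be told apart.

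The stem-loop was searched for in the 100 bases after the stop codon as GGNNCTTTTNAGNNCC on the sense strand of the GENCODE M21 transcripts. Of the 40 listed histone genes with at least 40 bases of annotated 3′ UTR, 34 (85.0%) held these letters, as did 13 of 20742 genes outside the list (0.063%). Of these 13, GENCODE names 10 as Hist genes, and the others were the histone genes H2afx and H2bfm and the gene Lrrc75b. The letters took 6 forms. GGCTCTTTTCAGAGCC stood in 19 genes of the H1, H2A, H2B and H3 classes, while H4 genes had their own forms. The genes shown are those whose changes are described most fully below, with the stem-loop in capitals and 5 bases on each side, written 5′ to 3′ in DNA letters.
H2bc22: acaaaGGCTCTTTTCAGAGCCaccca
H3c4: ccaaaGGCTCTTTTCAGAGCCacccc
H2bc3: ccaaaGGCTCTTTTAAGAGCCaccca
H4c9: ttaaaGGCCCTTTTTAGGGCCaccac
H2ac20: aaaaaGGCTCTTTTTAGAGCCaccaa
H2ac18: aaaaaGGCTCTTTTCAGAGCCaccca
In 6 genes (H1f1, H2bc21, H2bc23, H2bc4, H3c8 and H4c1) the window did not hold the letters, and 15 genes had less than 40 bases of 3′ UTR or none annotated. A missing match says only that these letters are not in this window of these transcripts.

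Many of these genes are near copies, and the deposited counts do not say how a read that fits several of them was assigned. All 11 H4 genes encode 1 protein of 103 residues, with 87.8% to 98.4% of coding bases identical between pairs. The 11 H3 genes encode 2 proteins of 136 residues, 7 genes (H3c13, H3c15, H3c2, H3c3, H3c4, H3c6 and H3c7) the first and 4 (H3c1, H3c10, H3c11 and H3c8) the second. Of 14 H2A genes with a coding sequence, 8 encode the same 130 residues. More than 50% of the 50-base words of 28 genes also stood in another transcript, while H1f1, H1f5 and H2bc21 shared none. Single-gene values below are therefore uncertain for most H2A, H2B, H3 and H4 genes, and sums over near copies are given beside them. GENCODE and RefSeq (GRCm38) placed 55 of the 56 genes, 47 on chromosome 13 and 8 on chromosome 3, and H2bc24 was not matched.

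Levels are given as CPM on a joint scale for all 20 libraries. The reads of each library were divided by a size from median-of-ratios scaling, not by their total. These CPM therefore do not add up to a common total in each library, and the levels and sums given here depend on this scaling. The H2A gene H2ac18 had the highest level, 163.5 CPM on average or 416 CPM per kilobase of coding length, and carried 13.5% of the summed CPM of the 54 genes. Per kilobase it was followed by H2ac13, at 239.6 CPM, and the linker histone gene H1f4, at 169 CPM. Only the coding length was divided by, while the longest annotated 3′ UTR was 1209 bases in H1f4 and 0 in H2ac13. The order per kilobase may depend on this choice. The first 7 genes (H2ac18, H1f4, H2ac13, H1f2, H2ac10, H2ac24 and H1f3) held 50.8% of the sum. At the low end stood H4c9 at 9.86, H2bc21 at 7.93, H2bc22 at 6.76 and H2ac21 at 3.83 CPM per kilobase of coding length. In the transcripts, 89.4% of the 50-base words of H2ac18 also stood in Gm20634, a gene that the tables list as well.

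Under OGD most of the histone genes that changed rose, in both genotypes. In WT cultures 24 of 55 genes rose and 5 fell, with limma at an adjusted p (Benjamini-Hochberg) under 0.05. Over all 14235 genes tested, 44.3% passed this test, 21.6% higher and 22.8% lower in OGD, against 43.6% of the histone genes higher and 9.09% lower. The median log2 change was 0.34 for the histone genes and -0.03 for all genes. In KO cultures 27 of 55 histone genes rose and 3 fell, where 40.9% of all 14375 genes passed, 21% higher and 19.9% lower. There the medians were 0.49 and 0.0. The total share called (52.7% in WT, 54.5% in KO) was nearer the background than the share called higher. With the KO cultures labelled batch 3.1 or 3.3 alone (3 of 5), 9 histone genes were called, 8 higher and 1 lower, and the all-gene count was 2341 in place of 5884. Of the 30 genes, H1f1, H2ac14, H2bc22, H2bc3, H2bc8, H3c6, H3c11 and H4c9 were called there too. With the WT cultures of batch 3 alone 24 were called, and H1f2, H2ac14, H2ac20, H2bc12 and H2bc6 were not.

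**Figure D1:**
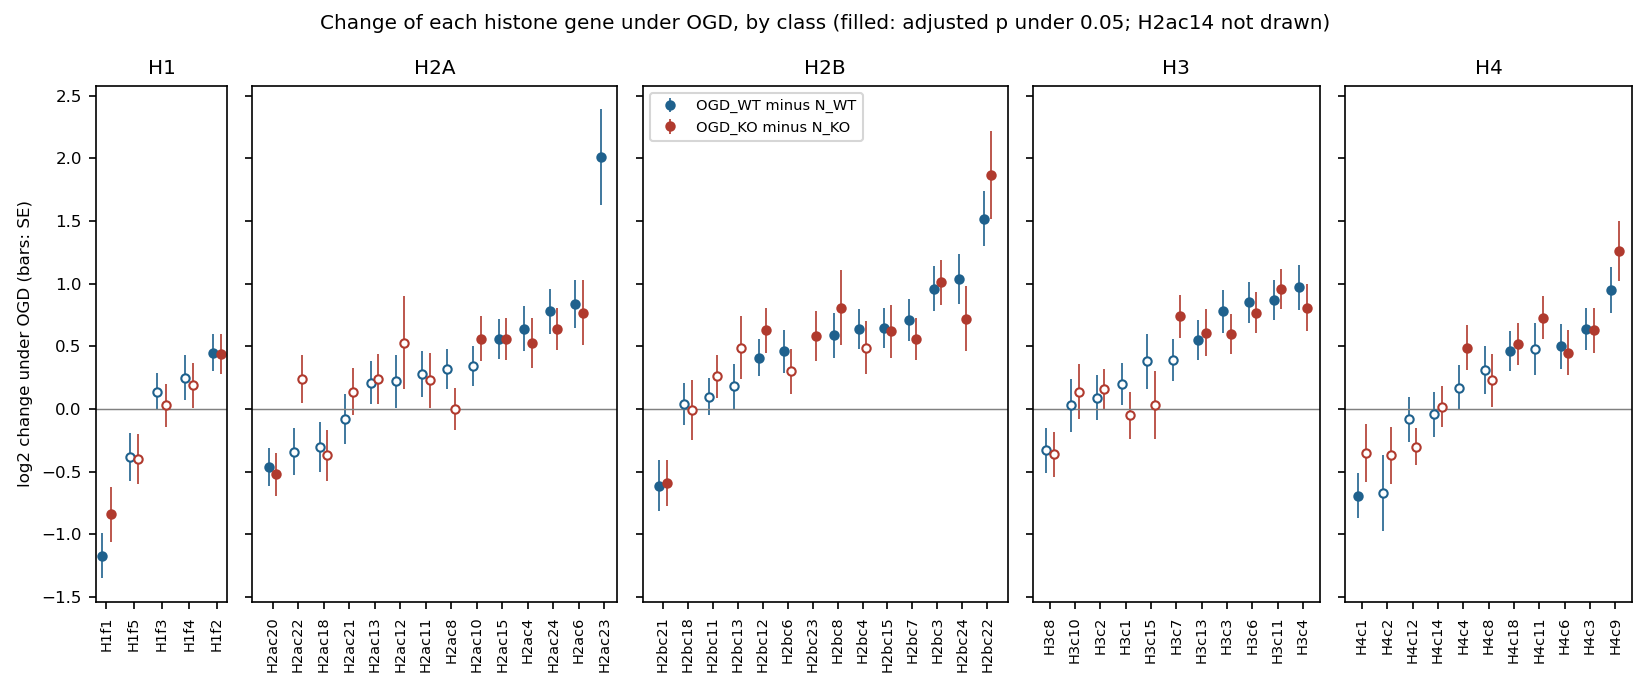
Log2 change under OGD (y axis) of each histone gene (x axis), in 1 panel per class, for WT (OGD_WT against N_WT) and KO (OGD_KO against N_KO) cultures, with bars for SE and filled points for an adjusted p under 0.05. Most filled points lie above 0, with H1f1, H2ac20 and H2bc21 filled below 0 in both genotypes. H2ac14 is not drawn.

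Both genotypes called 21 genes higher (H1f2, H2ac4, H2ac6, H2ac15, H2ac24, H2bc3, H2bc7, H2bc8, H2bc12, H2bc15, H2bc22, H2bc24, H3c3, H3c4, H3c6, H3c11, H3c13, H4c3, H4c6, H4c9 and H4c18) and 3 lower (H1f1, H2ac20 and H2bc21). Another 22 of the 54 genes tested in both were called in neither. With the culture as a block, 16 were called higher in both (H2ac4, H2bc8, H2bc15 and H2bc24 were lost in KO and H4c6 in each genotype) and 2 lower (H2bc21 was lost in WT). The WT and KO comparisons share no library, and over 53 genes (without H2ac14 and H2ac23) their log2 changes correlated at r = 0.92 and rho = 0.9, against r = 0.94 and rho = 0.94 over 14097 genes. These are correlations across genes, which are not independent replicates, many of these genes share sequence, and all tables share a protocol. Leaving out 1 library at a time, 21 of the 29 genes called in WT and 16 of the 30 called in KO stayed called in each of the 10 fits.

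The core histone classes H2B and H3 moved most as sums. Summed over 13 genes, H2B was at 152.9 CPM ± 18.5 (SD, n = 5) in N_WT and 222.5 ± 32.5 in OGD_WT, and at 150 ± 37.7 in N_KO and 214.9 ± 49.5 in OGD_KO. H3, over 11 genes, was at 102.2 ± 8.31 in N_WT and 149.5 ± 25.1 in OGD_WT, and at 108.7 ± 20.3 in N_KO and 152.6 ± 14.6 in OGD_KO. The log2 ratios of these sums were 0.52 and 0.54 for H2B and 0.52 and 0.51 for H3, in WT and KO. For H4 the ratios were 0.24 and 0.32, near the pooled SD of 0.21 and 0.23. H2A (0.07 and 0.17) and H1 (0.15 and 0.13) moved by less than their pooled SD of 0.22 to 0.26. The H2A sum and the sum of all 54 genes include H2ac14, which had no reads in several libraries. All 54 genes together were at 1101 ± 122 CPM in N_WT, 1297 ± 198.1 in OGD_WT, 1124 ± 225.8 in N_KO and 1327 ± 95.2 in OGD_KO.

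**Figure D2:**
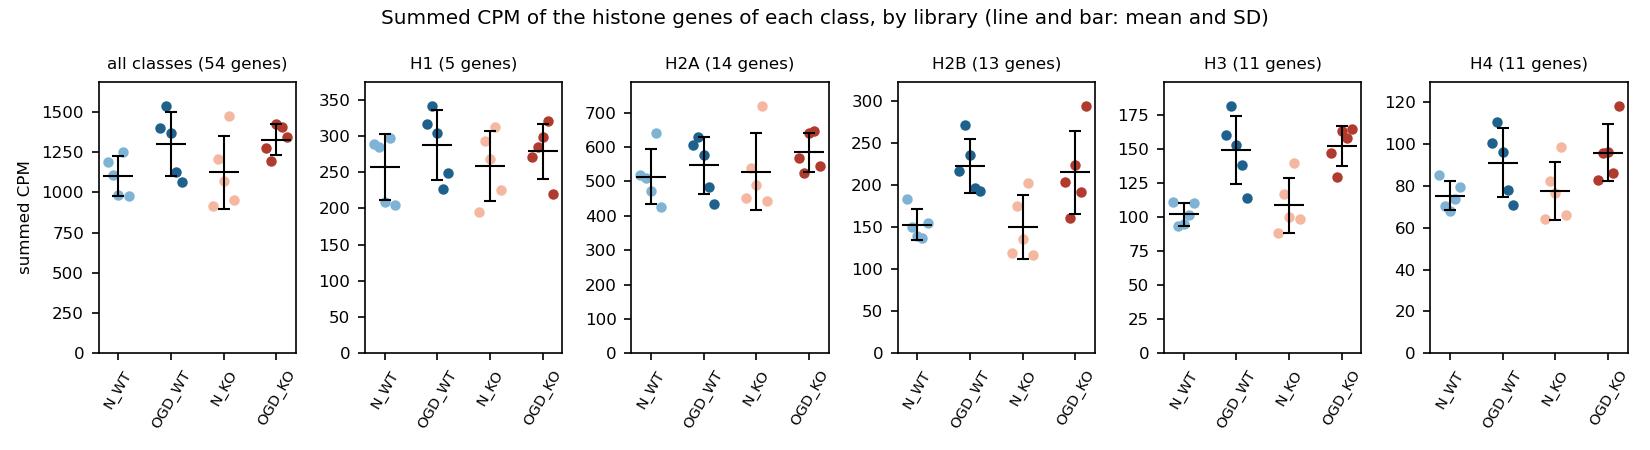
Summed CPM of the histone genes of each class (y axis) in each library of the 4 groups (x axis), with mean and SD. The H2B and H3 sums are higher under OGD by log2 ratios of 0.51 to 0.54, and their OGD and normoxia libraries do not overlap in WT but do in KO. The H1 and H2A sums overlap in both genotypes.

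Sums over near copies were also tested. Near copies were joined where at least 50% of the 50-base words of the shorter transcript were shared, a choice made after seeing the data. Refitted in limma with each family as 1 gene, the family of 10 H2B genes (9 of them in the WT table) rose by 0.53 (SE 0.14, adjusted p = 0.00432) in WT and by 0.59 (SE 0.18, adjusted p = 0.0115) in KO on the log2 scale. The family of 9 H3 genes rose by 0.52 (SE 0.15, adjusted p = 0.00733) and 0.52 (SE 0.14, adjusted p = 0.00652). A second H3 family, H3c13 and H3c15, rose by 0.52 in WT (limma adjusted p = 0.00965) and changed by 0.51 in KO, which was not called (adjusted p = 0.0504). For the 11 H2A copies (10 in the KO table) the change was 0.34 in WT (limma adjusted p = 0.0692) and 0.49 in KO (adjusted p = 0.0243). These copies include H2ac14, which is described further on and moved in opposite directions. Its mean was 14.2 CPM in N_WT and 6.91 in OGD_WT, and 16.6 in N_KO and 40.5 in OGD_KO. The family without H2ac14 was not tested, so its part in the difference between genotypes is not known. For the 6 joined H4 copies it was 0.13 and 0.14, with limma adjusted p of 0.531 and 0.549. Counted this way, 13 of 23 families or single genes were called in WT (10 higher, 3 lower) and 14 in KO (11 higher, 3 lower). In the main fits 44.3% of all genes were called in WT (21.6% higher) and 40.9% in KO (21% higher).

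Among core histone H2B genes, 9 of 13 rose and 1 fell in WT, and 8 of 14 rose and 1 fell in KO, with median log2 changes of 0.59 and 0.57. Called in either direction were 76.9% and 64.3%, against 44.3% and 40.9% of all genes. H2bc22, at chr13:21787461-21789213 on the plus strand of GRCm38, had the largest rise apart from H2ac14 and H2ac23, which are described further on. It was at 1.33, 0.778, 0.665, 1.53 and 1.64 CPM in N_WT replicates 1 to 5 and at 2.9, 5.47, 5.33, 3.83 and 3.29 in OGD_WT. In KO cultures it was at 1.7, 1.07, 0, 2.05 and 1.08 in normoxia and at 4.32, 5.11, 6.76, 2.9 and 4.62 under OGD. Every OGD library lay above every normoxia library in both genotypes, at 25 to 95 reads under OGD and at most 20 in normoxia. The log2 change was 1.52 (SE 0.22, limma adjusted p = 1.25e-05) in WT and 1.87 (SE 0.35, limma adjusted p = 0.000323) in KO. The exact permutation p was 0.00794 in each, the smallest that 5 against 5 libraries can give.

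H2bc3, another H2B gene, was at 25.6, 13.7, 15.4, 14.1 and 19.3 CPM in N_WT and at 30.3, 48.2, 37.4, 31.3 and 26.9 in OGD_WT. Its KO libraries were at 10.8, 16.1, 14.6, 21.9 and 15 in normoxia and at 29.3, 22, 33.2, 34.5 and 38.7 under OGD. The groups did not overlap in WT or KO, though the highest N_KO library (21.9) and the lowest OGD_KO library (22) nearly met. H2bc3 rose by 0.96 (SE 0.18, limma adjusted p = 0.000249) and 1.01 (SE 0.18, limma adjusted p = 0.000234) on the log2 scale. H2bc24 was at 6.98, 3.24, 3.61, 3.34 and 4.8 in N_WT and 6.68, 12.5, 10.7, 8.65 and 8.52 in OGD_WT, a rise of 1.04 (SE 0.2, limma adjusted p = 0.000272). In N_KO it was at 3.39, 5.8, 3.88, 6.78 and 2.59 and in OGD_KO at 6.56, 4.95, 7.9, 5.34 and 14. Normoxia and OGD libraries of H2bc24 overlapped in both genotypes, and its KO rise of 0.72 (limma adjusted p = 0.0321) was lost with the culture as a block (adjusted p = 0.0996). It was also lost without OGD_KO replicate 3 or 5 or without N_KO replicate 1, 3 or 5, at adjusted p of 0.0575 to 0.0839.

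H2bc12 had the highest level per coding kilobase among H2B genes, 90 CPM per kilobase. In N_WT it was at 35.5, 32.2, 30.5, 23.5 and 31.9 CPM and in OGD_WT at 41.7, 50.1, 39.6, 37.1 and 38.0. In N_KO it was at 20.3, 31.7, 22.7, 32.9 and 20.2 and in OGD_KO at 38.7, 27.8, 42.7, 35.1 and 54.1. The WT groups did not overlap and the KO groups did. The changes of 0.41 (limma adjusted p = 0.0284) in WT and 0.63 (limma adjusted p = 0.0101) in KO were both called. The WT call was lost without OGD_WT replicate 1, 2 or 3 or N_WT replicate 3 or 4, with adjusted p up to 0.0722 and a lowest change of 0.32.

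**Figure D3:**
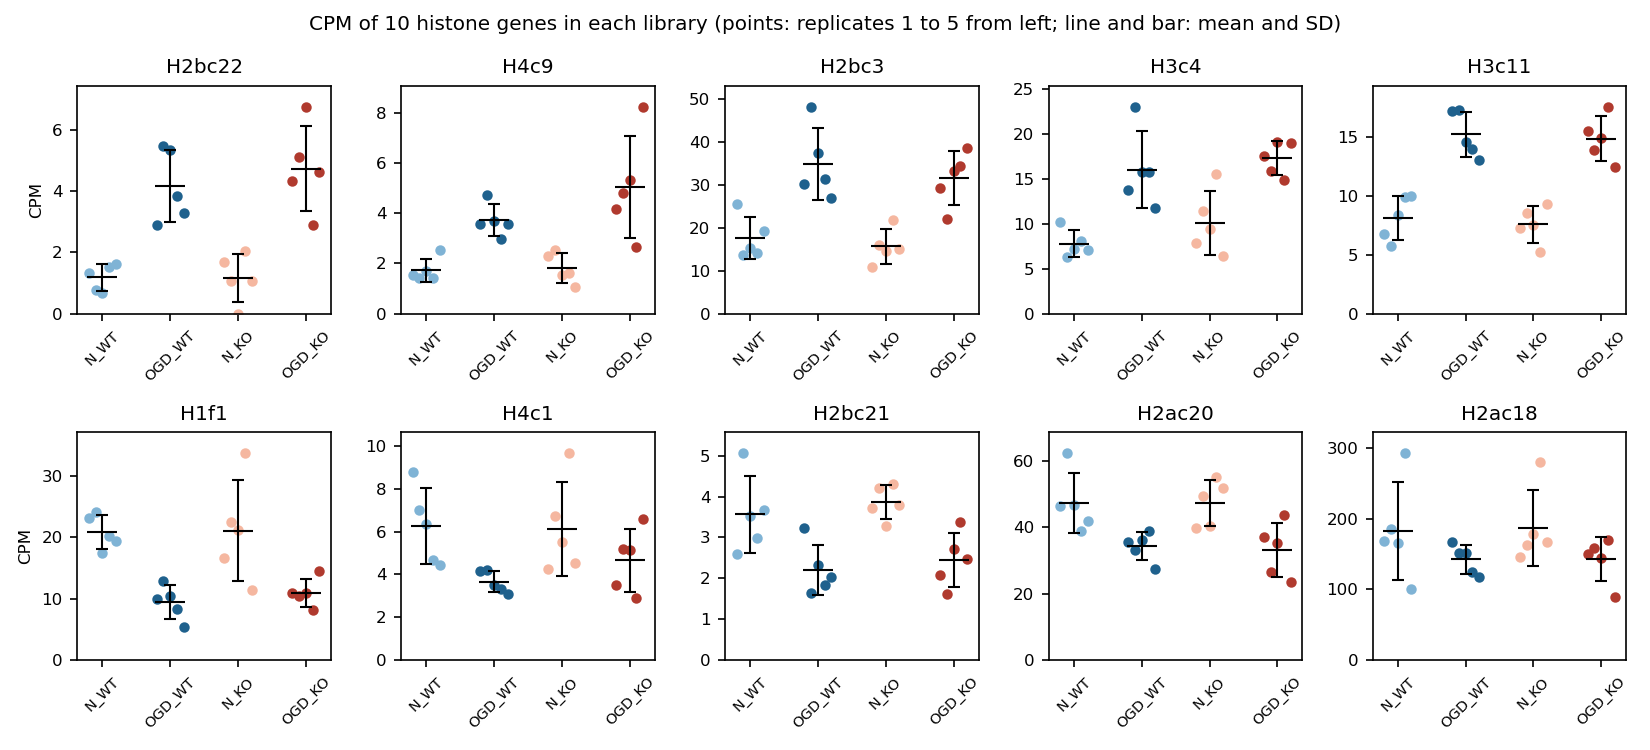
CPM (y axis) of 10 histone genes in each library, replicates 1 to 5 from left within each of the 4 groups (x axis), with mean and SD. The OGD points of H2bc22, H4c9, H2bc3 and H3c11 lie above all normoxia points of the same genotype, and those of H1f1 lie below them in WT.

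The H3 genes either rose or were not called: 5 of 11 rose in WT and 6 of 11 in KO. These shares of 45.5% and 54.5% stood against 44.3% and 40.9% of all genes called, and 21.6% and 21% called higher. H3c4 encodes the protein shared by 7 genes. It was at 10.2, 6.35, 7.22, 8.12 and 7.07 CPM in N_WT and at 13.7, 23, 15.7, 15.8 and 11.7 in OGD_WT, without overlap. In KO cultures it was at 7.88, 11.4, 9.4, 15.5 and 6.38 in normoxia and at 17.5, 15.9, 19.1, 14.9 and 19.0 under OGD, where N_KO replicate 4 reached into the OGD range. The log2 changes were 0.97 (SE 0.18, limma adjusted p = 0.000148) and 0.81 (SE 0.19, limma adjusted p = 0.00222). H3c11, of the other protein, was at 6.78, 5.77, 8.37, 9.93 and 9.97 in N_WT and at 17.2, 17.3, 14.6, 14 and 13.1 in OGD_WT. Its KO values were 7.29, 8.6, 7.52, 5.24 and 9.34 in normoxia and 15.5, 13.9, 14.9, 17.6 and 12.5 under OGD. No OGD library of H3c11 overlapped a normoxia library of its genotype, and it rose by 0.87 (SE 0.16, limma adjusted p = 0.000218) and 0.96 (SE 0.16, limma adjusted p = 0.000142).

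Of the 7 genes of the first H3 protein, 4 rose in WT and 5 in KO, with median changes of 0.55 and 0.61. Of the 4 genes of the second, H3c11 was called in each genotype and the others were not, with medians of 0.12 and 0.05. The difference between the 2 sets was not tested, and 44.3% and 40.9% of all genes were called. H3c2, the H3 gene with the highest level (63.4 CPM per coding kilobase), was at 27.6, 23.6, 24.2, 22.7 and 29.8 CPM in N_WT and 30.8, 39.5, 29.6, 25.9 and 16.6 in OGD_WT. It was at 18.8, 28.5, 21.4, 29.4 and 21.1 in N_KO and 26.6, 18.8, 28.1, 31.2 and 27.2 in OGD_KO. Its groups overlapped, and its changes of 0.09 and 0.16 did not pass limma (adjusted p = 0.709 and 0.47).

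Of the 11 H4 genes, 4 rose and 1 fell in WT and 6 rose in KO, although all encode the same protein. The share called was 45.5% in WT and 54.5% in KO, against 44.3% and 40.9% of all genes. The share called higher was 36.4% and 54.5%, against 21.6% and 21% of all genes. H4c9, at chr13:22040636-22041362 on the minus strand, was at 1.53, 1.43, 1.71, 1.44 and 2.53 CPM in N_WT and at 3.59, 4.74, 3.7, 2.97 and 3.58 in OGD_WT. In N_KO it was at 2.29, 2.53, 1.53, 1.64 and 1.08 and in OGD_KO at 4.18, 4.8, 5.34, 2.67 and 8.24. The groups did not overlap in either genotype, and H4c9 rose by 0.95 (SE 0.18, limma adjusted p = 0.000263) and 1.26 (SE 0.24, limma adjusted p = 0.000428). H4c1, near the far end of the chromosome 13 genes, went the other way in WT. It was at 8.77, 7.0, 6.37, 4.69 and 4.42 in N_WT and at 4.16, 4.19, 3.52, 3.34 and 3.1 in OGD_WT, without overlap, a fall of -0.69 (SE 0.18, limma adjusted p = 0.00421). In N_KO it was at 4.24, 6.73, 5.52, 9.65 and 4.52 and in OGD_KO at 3.53, 5.18, 5.13, 2.9 and 6.59, which overlap, and the change of -0.35 was not called (limma adjusted p = 0.228).

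H4c8, the H4 gene with the highest level (71.4 CPM per coding kilobase), was at 23.3, 20.3, 16.4, 19.5 and 17.0 CPM in N_WT and at 30.8, 32.7, 26.2, 21.4 and 14.5 in OGD_WT. It was at 12.9, 23.8, 20.9, 31.7 and 15.5 in N_KO and 20.9, 31.3, 25.0, 17.6 and 23.7 in OGD_KO. The libraries overlapped, and changes of 0.31 and 0.23 did not pass limma (adjusted p = 0.178 and 0.403). Without OGD_WT replicate 5, the lowest of its group, the WT change of H4c8 was 0.49 (adjusted p = 0.0132).

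Among H2A genes, 5 of 15 rose and 2 fell in WT, and 6 of 14 rose and 1 fell in KO. Called shares were 46.7% and 50%, against 44.3% and 40.9% of all genes. Shares called higher were 33.3% and 42.9%, against 21.6% and 21%. H2ac6 rose by 0.84 in WT (SE 0.19, limma adjusted p = 0.00094) and 0.77 in KO (SE 0.26, limma adjusted p = 0.0229), and H2ac24 by 0.78 and 0.64 (limma adjusted p = 0.00107 and 0.00544). The KO groups of H2ac6 overlapped (exact permutation p = 0.0556), and its KO call was lost without OGD_KO replicate 2 or N_KO replicate 3 or 4 (adjusted p = 0.0501 to 0.0782). The most abundant gene, H2ac18, did not follow. It was at 168.3, 185.0, 166.1, 292.3 and 100 CPM in N_WT and at 166.9, 152.0, 150.7, 124.8 and 118.0 in OGD_WT. In KO it was at 146.4, 163.0, 178.4, 279.2 and 166.5 in normoxia and at 150.2, 158.9, 144.0, 170.3 and 89.8 under OGD. The groups overlapped and changes of -0.3 and -0.37 were not called (limma adjusted p = 0.24 and 0.134), and the WT change was -0.5 without N_WT replicate 5 (adjusted p = 0.0236) and -0.11 without N_WT replicate 4 (adjusted p = 0.652).

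H2ac20 and H2bc21 lie head to head on chromosome 3 and were the only core histone genes called lower in both genotypes. H2ac20 was at 46.3, 62.3, 46.6, 39.0 and 42.0 CPM in N_WT and at 35.7, 33.3, 36.3, 39.0 and 27.6 in OGD_WT. It was at 39.9, 49.3, 40.5, 55.1 and 51.9 in N_KO and at 37.0, 26.6, 35.4, 43.7 and 23.6 in OGD_KO. The WT groups met at 39.0 in these rounded CPM and did not overlap in the fitted values (exact permutation p = 0.00794). The KO groups overlapped. In the fitted values all 5 cultures of each genotype were lower under OGD. H2ac20 fell by 0.46 (SE 0.15, limma adjusted p = 0.0181) and 0.52 (SE 0.17, limma adjusted p = 0.0203), and lost the call without N_WT replicate 2 (adjusted p = 0.0536), OGD_KO replicate 2 (0.0511) or N_KO replicate 4 (0.051).

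H2bc21 is an H2B gene whose long transcript, at chr3:96221119-96223738, holds no match to the stem-loop letters and shares no 50-base word with another gene. It was at 2.59, 5.06, 3.52, 2.98 and 3.66 CPM in N_WT and at 3.22, 1.64, 2.32, 1.85 and 2.03 in OGD_WT. In N_KO it was at 3.73, 4.2, 3.29, 4.31 and 3.79 and in OGD_KO at 2.09, 1.62, 2.71, 3.37 and 2.47. Only the ends of the ranges overlapped, in both genotypes. It fell by 0.61 in WT (SE 0.2, limma adjusted p = 0.0151) and by 0.59 in KO (SE 0.18, limma adjusted p = 0.0115). The WT call was lost with the culture as a block (adjusted p = 0.0547) and without N_WT replicate 2 (adjusted p = 0.0532).

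The linker histone genes, whose proteins bind DNA between nucleosomes, gave 1 rise and 1 fall of 5 in each genotype. This share of 40% was near the 44.3% in WT and 40.9% in KO over all genes. H1f1, at chr13:23763666-23764406 on the plus strand, shares no 50-base word with another gene and had the largest fall apart from H2ac14. It was at 23.1, 24.2, 17.4, 20.3 and 19.4 CPM in N_WT and at 10, 12.9, 10.5, 8.4 and 5.42 in OGD_WT, without overlap. In N_KO it was at 16.7, 22.5, 21.2, 33.7 and 11.4 and in OGD_KO at 10.9, 10.4, 10.9, 8.13 and 14.5, where N_KO replicate 5 lay within the OGD range. H1f1 fell by 1.17 in WT (SE 0.18, limma adjusted p = 3.32e-05) and by 0.84 in KO (SE 0.22, limma adjusted p = 0.00482). H1f2 rose by 0.45 and 0.44 (limma adjusted p = 0.0195 and 0.0323). Its WT call was lost without OGD_WT replicate 1 or 3 or N_WT replicate 3 (adjusted p up to 0.0774), and its KO call without OGD_KO replicate 1, 2 or 3 or N_KO replicate 1 or 5 (up to 0.113). H1f4, the most abundant H1 gene, was at 119.8, 116.9, 82.8, 129.9 and 69.8 in N_WT and 135.5, 141.3, 130.3, 93.9 and 113.8 in OGD_WT. It was at 72.8, 119.6, 107.4, 125.4 and 89.8 in N_KO and 114.0, 101.6, 128.2, 159.8 and 83.6 in OGD_KO. These libraries overlapped, and its changes of 0.25 and 0.19 were not called (limma adjusted p = 0.258 and 0.424).

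In the deposited values the highest and lowest library of each group had been drawn inwards. A further 11 genes, besides H4c8, were called in a genotype on these values and not in that genotype with the clipping undone over all libraries. In WT these were H2ac10, H2ac22, H2ac8, H3c15, H3c7, H4c11 and H4c2. Of these, H2ac10, H3c7 and H4c11 were called higher in KO with the clipping undone. Their KO changes were 0.56, 0.74 and 0.73 (limma adjusted p = 0.0198, 0.00206 and 0.00223). H3c7 and H4c11 stayed called in each KO fit without 1 library, and H2ac10 did not. None of them was called in KO with batch 3 libraries only. H2ac10 was at 61.1, 66.9, 52.3, 58.5 and 47.6 CPM in N_WT and at 87.2, 93.0, 75.9, 63.7 and 52.6 in OGD_WT, and H2ac8 at 13, 12.5, 12.2, 12.3 and 16.4 against 19.4, 20.7, 18, 12.8 and 14. H3c7 was at 4.52, 4.73, 4.18, 5.51 and 4.8 against 8.26, 7.93, 7.05, 4.94 and 4.65, and H3c15 at 4.98, 3.18, 3.61, 6.32 and 2.65 against 7.88, 6.11, 5.33, 5.19 and 3.2. In these 4 genes OGD_WT replicates 1 to 3 lay higher than replicates 4 and 5, which reached into the normoxia range. For H3c15, replicates 2 and 3 (6.11 and 5.33) also lay below the highest N_WT library (6.32). H4c11 was at 2.66, 1.88, 2.57, 3.07 and 5.43 in N_WT and 4.16, 5.56, 4.9, 3.95 and 3.29 in OGD_WT. H4c2 was at 2.92, 2.01, 1.43, 3.52 and 2.9 against 2.46, 0.912, 2.41, 1.98 and 0.387, and H2ac22 at 6.31, 6.48, 4.56, 4.06 and 3.03 against 3.78, 3.37, 4.04, 3.83 and 3.49. With the clipping undone the limma adjusted p of these 7 genes in WT lay between 0.0693 (H4c11) and 0.172 (H3c15). Each was also called in at least 1 fit without 1 library. These were H4c2 without OGD_WT replicate 1 or 3 or N_WT replicate 3 (adjusted p = 0.0295 to 0.031), H2ac8 and H3c7 without OGD_WT replicate 4 (0.0324 and 0.0312), and H2ac22 and H4c11 without N_WT replicate 5 (0.0301 and 0.00512). Without OGD_WT replicate 5, H2ac10, H3c7, H3c15 and H4c11 were called at limma adjusted p of 0.017 to 0.027, and H4c11 also passed with voom (0.0431).

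In KO the genes called as deposited and not with the clipping undone over all libraries were H2bc13, H2bc4, H3c8 and H4c12. H2bc13 was at 1.44, 4.6, 2.47, 4.11 and 3.86 CPM in N_KO and at 6.41, 2.63, 5.34, 4.06 and 4.78 in OGD_KO, and H2bc4 at 11, 16.2, 13.9, 21.4 and 14.6 against 22.4, 23.1, 22.8, 11.8 and 30.3. H3c8 was at 2.8, 4.47, 3.76, 5.85 and 4.7 against 3.39, 3.25, 3.77, 2.44 and 3.13, and H4c12 at 4.83, 7.47, 5.99, 5.34 and 6.26 against 5.19, 4.25, 4.84, 4.53 and 4.78. The normoxia and OGD libraries of all 4 overlapped, and the limma adjusted p with the clipping undone was 0.0718 to 0.129. H2bc4 was also called without OGD_KO replicate 4 (adjusted p = 0.00577) or N_KO replicate 4 (0.039), and H3c8 without N_KO replicate 1 (0.0467). In WT, H2bc4 was called higher with the clipping undone (0.64, limma adjusted p = 0.00268), also in each fit without 1 library.

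The genes lay in 3 stretches of the GRCm38 genome. On chromosome 13, 21 genes stood between 21715763 and 22043676 and 26 between 23531050 and 23764406, and on chromosome 3, 8 genes stood between 96219865 and 96270132. Leaving out H2ac14 and H2ac23, 8 of 18 genes tested in the first stretch rose in WT and 10 of 19 in KO, and none fell. In the second stretch 13 of 26 rose and 2 fell in WT, and 14 rose and 1 fell in KO. The falls there were H1f1 in both genotypes and H4c1 in WT, which lie at its end beside H4c2 and H3c1, neither of which was called. On chromosome 3, 1 of 8 genes rose and 2 fell in each genotype. Over all genes, 21.6% rose and 22.8% fell in WT, and 21% rose and 19.9% fell in KO. The difference between the stretches was not tested.

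**Figure D4:**
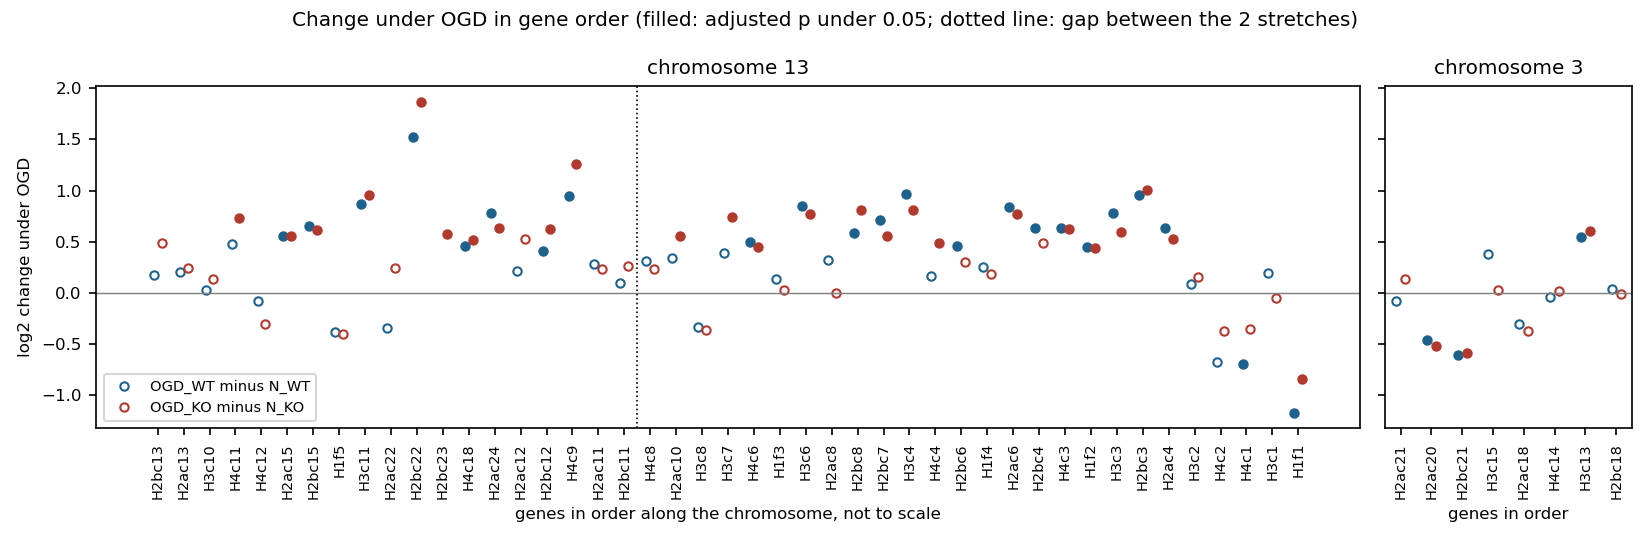
Log2 change under OGD (y axis) of the histone genes in gene order along chromosomes 13 and 3 (x axis, not to scale), for WT and KO cultures, with filled points for an adjusted p under 0.05. Filled points below 0 sit at the right end of chromosome 13 (H1f1 in both genotypes, H4c1 in WT) and at H2ac20 and H2bc21 on chromosome 3.

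Several H2A and H2B genes are divergent pairs that share the DNA between their start sites, and 9 such pairs were found. The DNA between the innermost starts that GENCODE or RefSeq annotates is shown on the plus strand for 3 of them (for H2ac22 the RefSeq start lies inside the GENCODE start), 1 whose genes fell together and 2 in which the H2B gene rose while the H2A gene was not called. Capitals mark 3 sets of letters on either strand, the octamer ATTTGCAT, which Oct factors bind, the TATA box in its form TATAAA, and the CCAAT box.
H2ac20 and H2bc21, chr3:96220881-96221118: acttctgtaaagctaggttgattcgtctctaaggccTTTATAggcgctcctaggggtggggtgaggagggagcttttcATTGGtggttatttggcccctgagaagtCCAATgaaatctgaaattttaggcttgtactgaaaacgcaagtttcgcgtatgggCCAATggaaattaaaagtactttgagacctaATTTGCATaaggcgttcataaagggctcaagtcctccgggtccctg
H2ac8 and H2bc8, chr13:23571221-23571395: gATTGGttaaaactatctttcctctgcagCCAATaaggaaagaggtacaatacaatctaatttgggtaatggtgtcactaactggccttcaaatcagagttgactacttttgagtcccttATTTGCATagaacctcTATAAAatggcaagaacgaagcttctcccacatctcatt
H2ac22 and H2bc22, chr13:21787249-21787460: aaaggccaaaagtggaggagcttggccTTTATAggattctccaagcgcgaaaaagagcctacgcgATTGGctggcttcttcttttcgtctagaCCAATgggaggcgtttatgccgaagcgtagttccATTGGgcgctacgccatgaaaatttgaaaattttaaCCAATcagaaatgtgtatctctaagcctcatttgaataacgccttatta
H2ac20 and H2bc21 changed by -0.46 and -0.61 in WT and by -0.52 and -0.59 in KO, all called. H2ac15 and H2bc15 both rose, by 0.56 and 0.65 in WT and 0.56 and 0.62 in KO, where the H2bc15 call was lost with the block (limma adjusted p = 0.0502) and without N_KO replicate 1 (0.0639). H2ac6 and H2bc4 both rose in WT, by 0.84 and 0.64, and in KO H2ac6 rose by 0.77 while H2bc4 (0.49) was not called. Neither gene was called in the pair H2bc13 and H2ac13 or in the pair H2ac11 and H2bc11. Of H2ac12 and H2bc12 only H2bc12 was called, higher in both genotypes. H2bc23 and H2ac23 were not listed together in either comparison. H2bc22 rose by 1.52 and 1.87 while H2ac22 changed by -0.34 and 0.24 and was not called, and H2bc8 rose by 0.59 and 0.81 while H2ac8 changed by 0.32 and -0.0 and was not called. The KO call of H2bc8 was lost with the block (limma adjusted p = 0.104) and without OGD_KO replicate 4 or 5 or N_KO replicate 5 (0.0719 to 0.0941).

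In the 250 bases before the start, taken from RefSeq promoters on GRCm38 and searched on both strands, the octamer stood in 5 of 14 H2A genes (35.7%) and 5 of 11 H2B genes (45.5%). None of the H1, H3 and H4 promoters held it, and 1.8% of 27025 promoters did. TATAAA stood in 42.9% to 80.0% of the promoters of each class against 14.3% of all promoters, and CCAAT in all H1, H2A and H2B promoters, 88.9% of H3 and 30.0% of H4 against 37.5%. A match is a description of the letters, not a binding site.

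Read by 3′ end, and again leaving out H2ac14 and H2ac23, 17 of 33 genes with the stem-loop letters rose and 1 fell in WT, with a median change of 0.45, and 19 rose and 1 fell in KO, with a median of 0.49. Of the genes without the letters in at least 40 bases of 3′ UTR, 1 of 5 rose and 3 fell in WT (median -0.61), and 1 of 6 rose and 2 fell in KO (median -0.36). Of 14 tested genes with under 40 bases of 3′ UTR or none annotated, 4 rose in WT (median 0.2) and 5 in KO (median 0.36). None of these fell. Among genes with an annotated 3′ UTR of 700 bases or more, 5 of 10 rose and 1 fell in WT, with a median of 0.35, and 5 of 11 rose and 1 fell in KO, with a median of 0.44. Over all genes, 44.3% were called in WT (21.6% higher, 22.8% lower) and 40.9% in KO (21% higher, 19.9% lower). These counts describe annotated transcripts, the set without the letters is small, and the difference between the sets was not tested.

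H2ac14 and H2ac23, whose reads were at 0 in several libraries, are set apart. GENCODE names H2ac14 an unprocessed pseudogene, and 93.1% of its 50-base words also stand in H2ac13. H2ac14 had 126, 34, 271, 0 and 276 reads in N_WT, 0, 379, 0, 0 and 0 in OGD_WT, 572, 433, 0, 0 and 92 in N_KO and 401, 514, 1229, 317 and 57 in OGD_KO. Its near copy H2ac13 had 555 to 1416 reads in N_WT, 723 to 1724 in OGD_WT, 727 to 1508 in N_KO and 786 to 1481 in OGD_KO. All OGD_KO libraries thus had H2ac14 reads, 4 of 5 OGD_WT libraries had none, and the normoxia libraries of both genotypes ranged from 0 to 572.

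The fitted log2 change of H2ac14 was -2.65 in WT (SE 1.07, limma adjusted p = 0.0474, exact permutation p = 0.167) and 2.92 in KO (SE 1.01, limma adjusted p = 0.0262, exact permutation p = 0.111). The WT call was lost with the culture as a block (adjusted p = 0.106), with voom (0.0631) and without OGD_WT replicate 1, 3 or 4 or N_WT replicate 1, 2, 3 or 5, at up to 0.159. The KO call was lost without OGD_KO replicate 2, 3 or 4 or N_KO replicate 3 or 4, at up to 0.119. H2ac23 had 31, 0, 0, 0 and 3 reads in N_WT, 25, 21, 49, 23 and 16 in OGD_WT and 0, 3, 0, 5 and 11 in OGD_KO. Its fitted WT rise was 2.01 (SE 0.38, limma adjusted p = 0.000249), with N_WT replicate 1 inside the OGD range. With 3 of 5 N_WT libraries at 0, this value depends on the prior count, and it was 3.94 at a prior count of 0.5. That of H2ac14 in WT was likewise -4.53 at a prior count of 0.5. Without these 2 genes, 23 of 53 histone genes rose and 4 fell in WT, and 26 of 54 rose and 3 fell in KO.

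**Figure D5:**
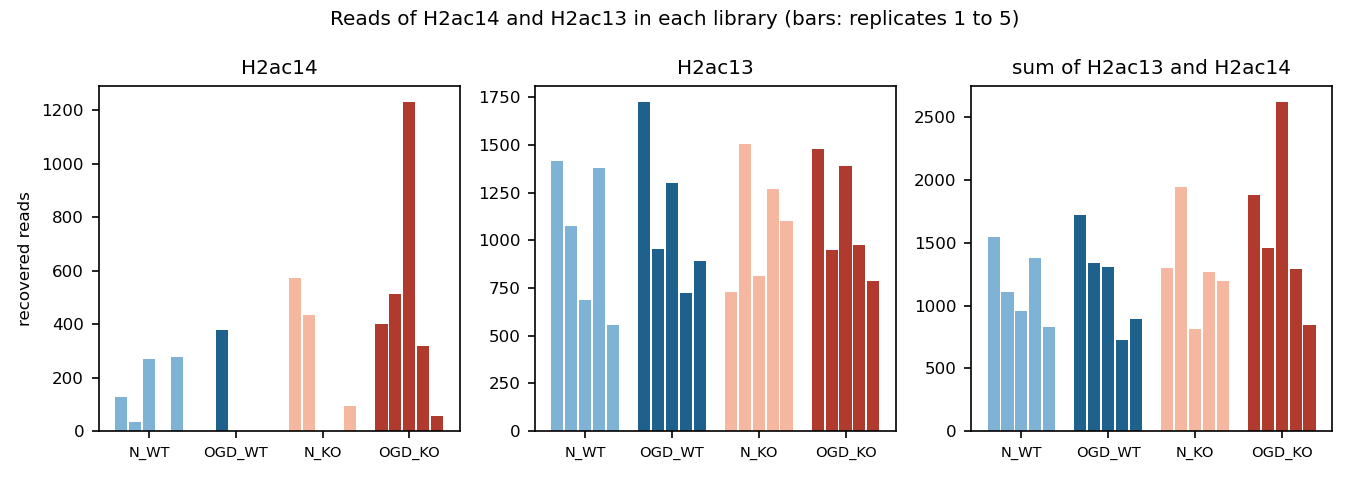
Recovered reads (y axis) of H2ac14, of its near copy H2ac13 and of their sum in replicates 1 to 5 (bars) of each group (x axis). H2ac14 has no reads in 4 of 5 OGD_WT libraries and 57 to 1229 in OGD_KO, while H2ac13 has 555 to 1724 reads in all libraries.

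Between genotypes no histone gene was called. In normoxia 0 of 54 passed limma (1 at an unadjusted p under 0.05), where 0.0353% of 14152 genes did, and the histone median was -0.01. Under OGD 0 of 56 passed (3 at an unadjusted p under 0.05), where 0.0282% of 14185 genes did, and the histone median was -0.0. For the interaction of genotype and treatment, fitted by limma over all 20 libraries, 0 of 54 histone genes and 0.0% of 13688 genes passed, with 1 histone gene at an unadjusted p under 0.05. That gene was H2ac14, named after its value was seen, with an adjusted p of 1.0. Under OGD the fitted change of H2ac14 between KO and WT was 5.21 (limma adjusted p = 0.135). The groups overlapped, with an exact permutation p of 0.0238. H2ac14 passed on the deposited values (5.77, adjusted p = 7.15e-05) and with voom (7.6, adjusted p = 0.0431). It also passed without OGD_WT replicate 2 (6.53, adjusted p = 1.85e-06) and without OGD_KO replicate 5 (5.64, adjusted p = 0.032). With the batch label as a covariate it passed too (4.74, adjusted p = 3.74e-11). However, OGD_WT replicates 2 and 4 share batch label 3.3 and had 379 and 0 reads, so that last p is not a measure of their spread. H2ac23 was called lower in OGD_KO than in OGD_WT only on the deposited values (-1.99, adjusted p = 0.0239) and without OGD_KO replicate 5 (-2.35, adjusted p = 0.00445). A missed threshold does not show that the genotypes express these genes alike.

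Of 24 genes that make or process histone mRNA, 5 rose and 4 fell in WT, and 3 rose and 3 fell in KO, with a median change of 0.12 in each. The 9 and 6 called are a smaller share than the 44.3% and 40.9% of all genes. Npat, which activates histone transcription in S phase, rose by 0.58 and 0.51 (limma adjusted p = 0.00243 and 0.00915), and the transcription factor gene Yy1 by 0.86 and 0.92 (limma adjusted p = 0.00042 and 0.00193). Lsm11, a subunit of the U7 particle that cuts the 3′ end, fell by 0.65 and 0.81 (limma adjusted p = 0.00249 and 0.00259). Ncbp2, a cap-binding subunit, fell by 0.92 and 0.69, and Tut4, which adds uridines to RNA ends, rose by 0.65 and 0.63, all called in limma. Lsm1, of a complex that helps degrade histone mRNA, fell by 0.56 and 0.57, and its WT call was lost with the culture as a block (limma adjusted p = 0.0648). Slbp was at 37.2 ± 10.7 CPM (SD, n = 5) in N_WT and 56.2 ± 20.1 in OGD_WT, and 35.5 ± 11.3 in N_KO and 48.5 ± 13.4 in OGD_KO. Its changes were 0.55 (SE 0.22, limma adjusted p = 0.0493) and 0.49 (SE 0.23, adjusted p = 0.0994), and the WT call was lost with the culture as a block (adjusted p = 0.149). It was also lost in 7 of the 10 fits without 1 WT library (OGD_WT replicate 1, 2, 3 or 4 and N_WT replicate 2, 3 or 4), with adjusted p up to 0.181.

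Of 12 listed histone variant genes outside the clustered series (among them H2ax, whose transcript also held the stem-loop letters), 7 rose and 1 fell in each genotype, against 44.3% and 40.9% of all genes called. H3f3b, for the replacement variant H3.3, was at 227.8 ± 18.2 CPM (SD, n = 5) in N_WT and 559.5 ± 107.4 in OGD_WT and rose by 1.26 in WT and 1.12 in KO (limma adjusted p = 1.16e-06 and 2.73e-05). Cenpa, for the centromere variant, rose by 1.2 and 1.28 (limma adjusted p = 7.89e-06 and 0.000165), and the linker variant gene H1f10 fell by 0.72 and 0.56 (limma adjusted p = 0.000458 and 0.00543). Macroh2a1 (0.62 and 0.64) and H2az1 (0.5 and 0.59) also rose. Of 19 listed histone chaperone genes 7 rose in each genotype and none fell, a smaller share than the 44.3% and 40.9% of all genes called in either direction and a larger one than the 21.6% and 21% called higher. Npm1 rose by 0.85 and 0.82, Ubn1 by 0.73 and 0.63, and Anp32e by 0.7 and 0.63, all called in limma, and the rest were Mcm2, Ssrp1, Chaf1a and Rbbp4, of which Mcm2 is also an S-phase gene.

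Genes of dividing cells and cell type markers also changed under OGD, where 21.6% of all genes were higher and 22.8% lower in WT, and 21% higher and 19.9% lower in KO. Of 19 mitosis genes 18 rose in each genotype, with median changes of 1.1 and 1.13, and their summed level was 628.0 to 821.6 CPM in N_WT, 1160 to 2112 in OGD_WT, 590.1 to 972.7 in N_KO and 1435 to 1936 in OGD_KO. Of 28 S-phase genes 12 rose and 4 fell in WT, and 13 rose and 3 fell in KO. Of 9 listed astrocyte markers 6 rose and 1 fell in WT and 5 rose in KO, and their summed level was 1110 to 1386 CPM in N_WT, 1820 to 2260 in OGD_WT, 879.6 to 1553 in N_KO and 1490 to 2314 in OGD_KO. Of 11 progenitor markers 5 rose in each genotype and 1 fell in WT. Of 7 listed oligodendrocyte lineage markers 1 rose and 2 fell in WT and 3 rose in KO. Neuron markers, all 16 of which were listed, fell in 10 cases in WT and 11 in KO, from a sum of 5458 to 6730 CPM in N_WT to 3369 to 6136 in OGD_WT and from 5989 to 6156 in N_KO to 3559 to 5033 in OGD_KO. Of 10 microglia markers 2 were listed, at a sum of 3.28 to 8.6 CPM over the 4 groups, and Cx3cr1, P2ry12 and Csf1r were not. Of 12 vascular and fibroblast markers 7 were listed, at 5.44 to 12.1 CPM, and no erythroid marker was listed. The part of these changes in the histone result was not tested.

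Over the 20 libraries, the genes outside the list whose log2 CPM correlated best with that of the summed histone genes were Sap30l (r = 0.896), 2700099C18Rik (r = 0.885), Gli2 (r = 0.885), Kif14 (r = 0.87) and Mrpl47 (r = 0.869), of 13634 genes compared. The libraries share a protocol and the OGD and normoxia groups, so this is a description of 20 points without a test. None of the genes compared reached r = 0.9.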

How the data were processed

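Total RNA of 20 mouse cortical neuron cultures was sequenced, per the labels, from stranded libraries, with mm10 as the build per the submitters' processing notes. The aligner, the counting of reads that fit several genes and the annotation are not given in the sources used here. The authors deposited log2 CPM in 4 tables, 1 per comparison, normalized separately. In each gene and group the highest and lowest values lay where clipping at the 10th and 90th percentile puts them (weights 0.6 and 0.4). With this undone, at least 99.91% of values up to 500 reads were whole within 0.05 reads (45.5% to 92.8% as deposited), and at least 99.978% of reads were equal between tables. The prior count these values imply was 3.56 to 4.96.

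Each table was fitted with limma 3.58.1 in R 4.3.3 (lmFit, eBayes with trend) on the log2 CPM with clipping undone, over all its genes, without a block, two-sided, with calls where the Benjamini-Hochberg adjusted p lay under 0.05. The interaction used the 13688 genes in all tables, a prior count of 2 and duplicateCorrelation by culture (consensus -0.169). Joint CPM used median-of-ratios scaling of the recovered reads. Exact permutation tests were two-sided. The code was tested on simulated data.

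Normoxia and OGD libraries of a number share the genotype label and batch, so numbers pair them by the labels. Their deviations from the group means correlated at -0.594 to 0.046 in WT and -0.753 to -0.073 in KO.

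Genes with values in every library were the called ones (above 12, the 6 largest rises and 6 largest falls) and the highest of each class per coding length. Those called as deposited but not with the clipping undone in the same comparison were added. Alternatives were the deposited values, voom, another scaling, prior count 0.5, a mean of at least 10 reads, the block, batch, single libraries left out, family sums and 2 genes left out. The last 2 were chosen after seeing the data. The members and lists were chosen with earlier results of these data known.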

Additional observations from a re-analysis of the deposited data

Results flagged for a closer look

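In 91 groups of 5 libraries checked over the named genes, 3 held a library that stood far from the other 4, and chance marks about 1 group in 20. H2ac14 was at 34.6 CPM in OGD_WT replicate 2 and at 0 in the other 4 OGD_WT libraries. H2ac18 was at 89.8 CPM in OGD_KO replicate 5 and at 144.0 to 170.3 in the others. H2ac23 was at 2.06 CPM in N_WT replicate 1 and at 0 to 0.379 in the others.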

How the results depend on the processing

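With the culture as a block, which pairs normoxia and OGD libraries, 26 histone genes were called in WT (29 without it; H2ac14, H2bc21 and H4c6 were lost) and 23 in KO (30 without it; H2ac4, H2bc15, H2bc23, H2bc24, H2bc8, H4c4 and H4c6 were lost), and no histone gene passed the interaction. Between genotypes, where libraries share only a number (and, for replicate 1, the batch), the block left 0 calls in normoxia and 0 under OGD. As deposited, 37 and 34 were called. In KO, 9 were called with batch 3 libraries only, of which 8 were among the 30. With members summed by family the counts were 13 in WT and 14 in KO. Between genotypes under OGD, 2 genes were called as deposited (H2ac14 and H2ac23), and 1 (H2ac14) with voom and with the batch label as a covariate. Leaving out 1 library, the counts ranged from 24 to 34 in WT, 23 to 29 in KO, 0 to 0 between genotypes in normoxia, 0 to 2 under OGD (2 without OGD_KO replicate 5, 1 without OGD_WT replicate 2) and 0 to 0 for the interaction. The other scaling, prior count and filter left 29 in WT and 29 or 30 in KO. No direction of a called result turned. Where a fold rests on few reads, as for H4c9, H2bc22, H2bc21 and H4c2, counting error limits the value, and which copy a read came from cannot be read from these counts. In KO with batch 3 libraries only, Npat, Tut4, Ncbp2, Lsm1, Macroh2a1, H2az1, H1f10, Npm1, Ubn1, Anp32e, Mcm2, Ssrp1, Chaf1a and Rbbp4 were not called either. The cause of lost calls was not tested.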
